A study of Mus musculus with 7 samples.

Results

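The 10 genes described here encode inflammatory cytokines and 1 enzyme: the IL-6 family cytokines Lif and Il6, the IL-1 family cytokines Il1a, Il1b and Il33, the cytokine Tnf, the colony-stimulating factors Csf1, Csf2 and Csf3, and the prostaglandin enzyme Ptgs2. They were taken by gene symbol from the array annotation, and each of the 10 had 1 probe set of its own among 19938 genes measured. Expression was read on 7 single-colour Affymetrix Mouse Gene 1.0 ST arrays, 1 per sample. MDEC are mouse dermal endothelial cells, labelled PECAM status + (n = 1 array). B16F10 is a mouse melanoma line, and its clones A2, A3, A4 and A5 were labelled PECAM1+ (n = 4). Clone A1, labelled PECAM1-, and the parental B16F10 population, labelled PECAM status -, made up the PECAM1- group (n = 2). PECAM1 (CD31) is a cell adhesion molecule of the vessel wall and of blood cells. Each clone was a single line with 1 array, and the labels did not say how PECAM1 came to differ or that the arrays stood for separate cultures, so the p-values rest on the spread among these arrays alone, part of which may be technical. No stimulus was named for any sample. MDEC were grown in DMEM with an endothelial growth supplement and all B16F10 cells in DMEM with serum, so cell type and medium cannot be told apart in any comparison with MDEC.

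Cytokines of the IL-6 family signal through receptors that contain the gp130 chain (Il6st) and activate JAK kinases and STAT3. IL-1 family cytokines and TNF act mainly through NF-kB, which in many cells raises the mRNA of Il6, Csf1, Csf2, Csf3 and Ptgs2. Colony-stimulating factors drive the growth of macrophages and granulocytes, and endothelial cells are among their sources. Ptgs2 encodes cyclooxygenase-2, the inducible enzyme that turns arachidonic acid into prostaglandin H2, the precursor of prostaglandin E2, prostaglandin D2 and prostacyclin.

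The stretches of 250 bases before the RefSeq transcription start are printed for 4 of the genes, because these had the largest differences in either comparison below. The build is GRCm38.p6, and each is read on the gene's own strand. Capitals mark motif matches. Lif lies on the plus strand at chr11:4257318-4257567, Csf1 on the minus strand at chr3:107760470-107760719, Il6 on the plus strand at chr5:30012864-30013113 and Ptgs2 on the plus strand at chr1:150099781-150100030.
Lif: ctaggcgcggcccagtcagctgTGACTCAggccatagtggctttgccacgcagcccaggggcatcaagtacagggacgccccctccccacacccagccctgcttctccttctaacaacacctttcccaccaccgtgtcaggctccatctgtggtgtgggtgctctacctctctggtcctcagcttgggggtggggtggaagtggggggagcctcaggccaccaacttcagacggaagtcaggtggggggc
Csf1: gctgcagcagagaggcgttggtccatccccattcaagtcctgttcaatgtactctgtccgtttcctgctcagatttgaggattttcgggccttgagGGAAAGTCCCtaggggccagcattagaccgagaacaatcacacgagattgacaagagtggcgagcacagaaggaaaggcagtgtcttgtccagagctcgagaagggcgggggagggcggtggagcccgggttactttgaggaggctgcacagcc
Il6: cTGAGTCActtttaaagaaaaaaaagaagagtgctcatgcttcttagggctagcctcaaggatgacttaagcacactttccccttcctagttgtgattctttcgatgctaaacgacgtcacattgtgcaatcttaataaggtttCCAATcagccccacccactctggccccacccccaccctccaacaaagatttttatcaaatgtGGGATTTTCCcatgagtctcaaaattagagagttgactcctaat
Ptgs2: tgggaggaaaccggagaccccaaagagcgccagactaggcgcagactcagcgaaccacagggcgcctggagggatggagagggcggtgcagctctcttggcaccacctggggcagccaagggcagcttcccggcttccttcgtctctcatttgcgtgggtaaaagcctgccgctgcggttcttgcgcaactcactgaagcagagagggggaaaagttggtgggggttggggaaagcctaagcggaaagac
Both strands were searched for 6 motifs: the TATA box TATAAA, the CCAAT box CCAAT, the AP-1 motif TGANTCA, the cyclic AMP response element TGACGTCA, the STAT motif TTCNNNGAA and the NF-kB motif. The Lif stretch held 1 AP-1 match, between 222 and 228 bases before the start. The Csf1 stretch held 1 NF-kB match, between 145 and 154 bases before the start. The Il6 stretch held an AP-1 match at 243 to 249 bases, a CCAAT box at 102 to 106 bases and an NF-kB match at 35 to 44 bases before the start. The Ptgs2 stretch held none of the 6 in these letters. No matches overlapped each other. Among the other genes, Il1a and Il1b lie on chromosome 2, Il33 on 19, Tnf on 17, and Csf2 and Csf3 on 11. Promoters of 9 of the 10 genes were in the table, and an AP-1 match was found in 3 of them, an NF-kB match in 2, a TATA box in 4, a CCAAT box in 2, and the STAT motif and cyclic AMP response element in 0. Of all 32851 promoter stretches of this length, 6.75% held the AP-1 motif, 3.9% the NF-kB motif, 12.4% the TATA box, 33.8% the CCAAT box, 7.02% the STAT motif and 1.55% the cyclic AMP response element. A match is a string of letters and not a shown binding site.

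The values are log2 expression values, so a difference of 1 is a 2-fold change. The median gene stood between 6.60 and 6.69 on the 7 arrays. No detection calls were used, and probe sets bind with different strength, so levels are compared between arrays and not between genes. Of the 10 genes, Il6, Il1a, Il1b, Tnf, Csf2 and Csf3 lay below the array's median gene on all 7 arrays. Pecam1 stood at 11.72 in MDEC, on average 11.03 in the 4 PECAM1+ clones (SD 0.03), 5.43 in clone A1 and 5.27 in parental cells, as the labels say. Clone A1 stood apart from the other B16F10 arrays. It differed from each of them by at least 2-fold for 1325 to 1447 genes, where parental cells differed from the PECAM1+ clones for 108 to 245 genes and the clones from each other for 30 to 159. The differences of Lif, Il33 and Csf1, the direction counts over the 10 genes and the medians of the gene lists are therefore also given against each of its arrays. Endothelial markers fitted the MDEC label for 10 of 12 genes, which were at least 4-fold above B16F10, such as Cdh5 at 12.41 in MDEC against at most 5.08 in B16F10. The exceptions were Cldn5, at 7.82 in MDEC against 5.86 to 6.23, and Vwf, at 6.41 in MDEC against 6.55 to 7.05 in B16F10. Melanocyte markers were at least 4-fold lower in MDEC for 8 of 9 genes, such as Tyrp1 at 4.95 against 12.89 to 13.09 in B16F10.

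**Figure D1:**
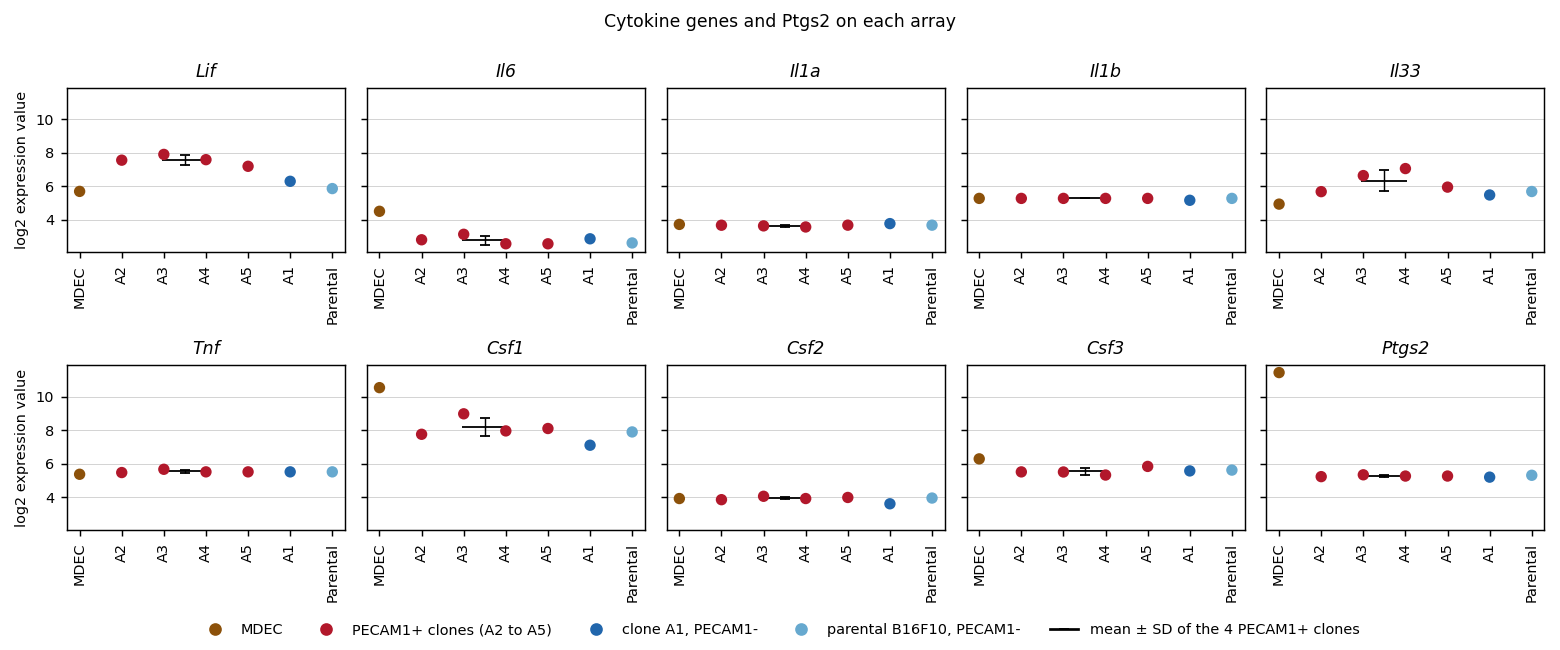
Log2 expression value (vertical axis, same scale in every panel) of each of the 10 genes on the 7 arrays (horizontal axis: MDEC, PECAM1+ clones A2 to A5, PECAM1- clone A1 and parental cells). Each point is 1 array and the black bar is the mean ± SD of the 4 PECAM1+ clones. Ptgs2 and Csf1 stand highest in MDEC, at 11.44 and 10.54, and Lif stands higher in all 4 PECAM1+ clones than on the other 3 arrays.

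The first comparison asked whether any of the 10 genes differed between PECAM1+ clones and PECAM1- samples. Lif encodes leukemia inhibitory factor, a cytokine known for keeping mouse embryonic stem cells undifferentiated. It was the 1 gene of the 10 in which all 4 PECAM1+ clones lay above both PECAM1- samples, as in 7.73% of all genes. Its log2 level was 7.56 in clone A2, 7.90 in A3, 7.59 in A4 and 7.19 in A5, against 6.30 in clone A1 and 5.86 in parental cells. The lowest PECAM1+ clone lay 0.89 above clone A1. The PECAM1+ clones averaged 7.56 ± 0.29 (SD, n = 4) and the PECAM1- samples 6.08 ± 0.31 (SD, n = 2). The difference was 1.48 ± 0.22 (SE), or 2.78-fold. It did not pass the limma test after adjustment over all genes (adjusted p = 0.312). Of all 19938 genes, 0.01% were called in that test (2 genes), 9.18% had an unadjusted p under 0.05, as did 1 of the 10, Lif, and for 7.73% all 4 PECAM1+ clones lay above both PECAM1- samples. A set of 100 genes, 0.502%, did so with a difference of at least 2-fold, and Lif was 1 of them. Ranked over all genes, Lif was 51st by p and 92nd by positive difference. With 4 against 2 arrays an exact permutation test of a single value has 15 splits and cannot go below p = 0.0667.

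The size of the Lif difference held against both PECAM1- arrays taken singly. Against clone A1 alone it was 1.26 ± 0.28 (SE), with a limma adjusted p of 0.0515. Against parental cells alone it was 1.69 ± 0.28 (SE), or 3.24-fold, with a limma adjusted p of 0.161. In those fits the lone PECAM1- array is assumed to vary like the PECAM1+ clones, whose SD for Lif was 0.29, and 4.68% of all genes had an SD at least as large. Clone A1 and parental cells differed by 0.43, which is less than the range of 0.71 among the 4 PECAM1+ clones. MDEC held the lowest Lif value, 5.70, which was 0.17 below parental cells and so within the SD of the clones. The order was thus the 4 PECAM1+ clones, then clone A1, parental cells and MDEC, and the last 3 were not separated by more than the clones' own range. Lif, Csf2, Csf3 and Pecam1 lie on chromosome 11, whose 1563 measured genes had a median difference of -0.04 between PECAM1+ and PECAM1- arrays.

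In the other 9 genes the PECAM1+ and PECAM1- arrays overlapped. Il33, which encodes a nuclear alarmin released from damaged barrier cells, was at 5.68 in A2, 6.64 in A3, 7.06 in A4 and 5.95 in A5, against 5.48 in clone A1 and 5.69 in parental cells. Clones A3 and A4 were high, and A2 lay level with parental cells, so the groups overlapped. The difference of 0.75 ± 0.41 (SE) did not pass (limma adjusted p = 0.537). It was 0.85 ± 0.61 (SE) from clone A1 and 0.64 ± 0.61 (SE) from parental cells, with limma adjusted p of 0.445 and 0.857. The range of 1.37 among the PECAM1+ clones was wide, since 0.487% of all genes had one at least as large. Csf1, which encodes the macrophage growth factor M-CSF, was at 7.76 in A2, 8.98 in A3, 7.96 in A4 and 8.10 in A5, against 7.11 in clone A1 and 7.90 in parental cells. Clone A3, named because it was the highest, lay 1.04 above the mean of the other 3 PECAM1+ clones. For A3 alone, 0.221% of all genes were at least 2-fold higher in this way. Whichever clone was extreme, 0.712% of all genes had a range among the PECAM1+ clones at least as large as the 1.22 of Csf1. Clone A1 held the lowest Csf1 value, and parental cells lay within the range of the PECAM1+ clones. The difference of 0.70 ± 0.41 (SE) did not pass (limma adjusted p = 0.541). With clone A1 as the sole PECAM1- array it was 1.09 ± 0.52 (SE, limma adjusted p = 0.245). With parental cells in that place it was 0.30 ± 0.52 (SE, limma adjusted p = 0.980).

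The remaining 7 genes ranged over less than 1 log2 unit within B16F10. The ranges were 0.57 for Il6, 0.51 for Csf3 and 0.45 for Csf2, above the 0.38 of the median gene, and 0.11 to 0.20 for Il1a, Il1b, Tnf and Ptgs2. Csf2, which encodes GM-CSF, stood between 3.87 and 4.07 in the PECAM1+ clones, against 3.62 in clone A1 and 3.96 in parental cells. Its difference was 0.17 ± 0.11 (SE) over both PECAM1- arrays and 0.003 ± 0.086 against parental cells alone. Csf3, which encodes the granulocyte factor G-CSF, stood between 5.33 and 5.85 in the PECAM1+ clones, against 5.58 in clone A1 and 5.63 in parental cells. Il6 stood between 2.58 and 3.14 in the PECAM1+ clones, against 2.87 in clone A1 and 2.63 in parental cells. Tnf was at 5.48 in A2 and 5.68 in A3, and held one identical value, 5.52, in A4, A5, clone A1 and parental cells. Il1a stood between 3.58 and 3.69 in the PECAM1+ clones, against 3.78 in clone A1 and 3.69 in parental cells. Ptgs2 was flat across the melanoma arrays, between 5.24 and 5.35 in the PECAM1+ clones, against 5.21 in clone A1 and 5.32 in parental cells, a difference of 0.02 ± 0.05 (SE). None of these passed over all genes, with limma adjusted p from 0.537 to 0.964.

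Il1b was the 1 gene of the 10 called in a fit against a single PECAM1- array. It held the identical value of 5.28 in the 4 PECAM1+ clones, in parental cells and in MDEC, and 5.17 in clone A1. The clones exceeded clone A1 by 0.11. With identical values their SD was 0, so the call in the fit against clone A1 does not rest on a measured spread among them. In that fit 20.5% of all genes were called, and 34.2% had an unadjusted p under 0.05. Against parental cells alone 0 of the 10 genes were called by limma, where 0.01% of all genes were called and 13.5% had an unadjusted p under 0.05, and Lif was the 1 of the 10 with such a p. Over the 10 genes 8 had a higher mean in the PECAM1+ clones than in the PECAM1- samples, with a median difference of 0.04, beside 50.4% of all genes and a median of 0.00. With clone A1 as the sole PECAM1- array 7 were higher and 3 lower (median 0.09), beside 51.3% of all genes that were higher. With parental cells in that place 6 were higher and 3 lower (median 0.02), beside 48.3% of all genes.

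**Figure D2:**
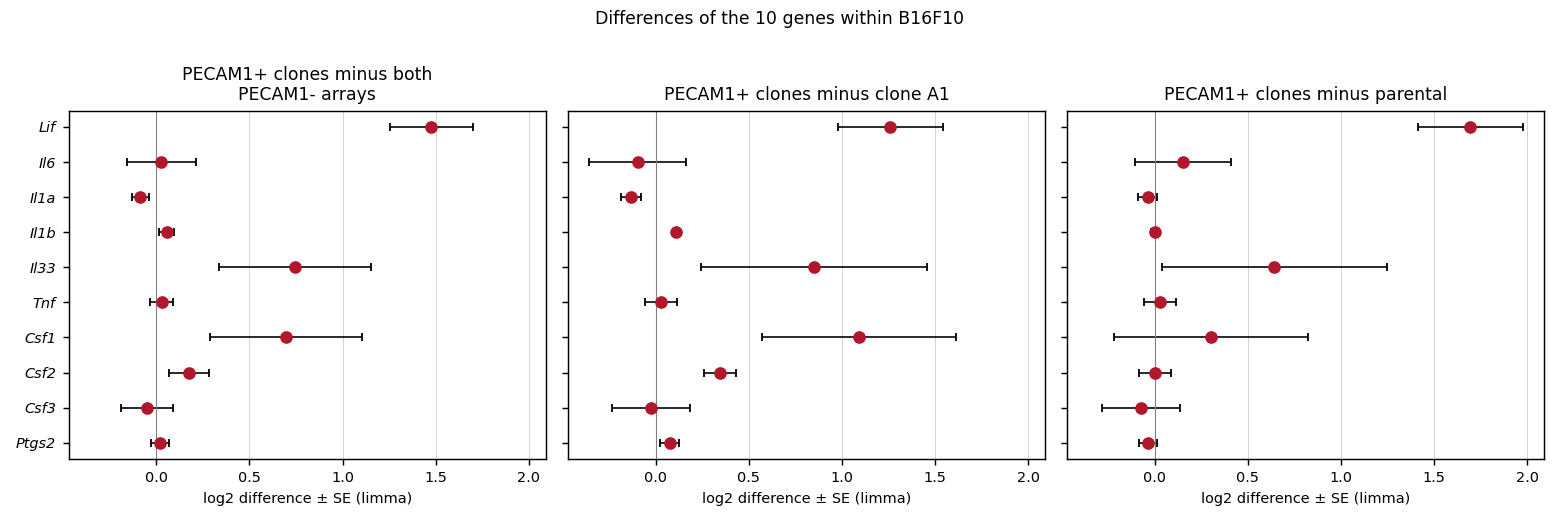
Difference in log2 value of each of the 10 genes (horizontal axis, same scale in the 3 panels) between the PECAM1+ clones and both PECAM1- arrays, clone A1 alone, and parental cells alone. Points are limma estimates and bars their standard errors. Lif lies at 1.48, 1.26 and 1.69 in the 3 panels, while Csf1 and Il33 have standard errors of 0.41 to 0.61.

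The second comparison set MDEC beside the melanoma cells. With 1 MDEC array there is no test, so a gene was counted when its MDEC value passed 2 limits. It had to lie beyond the highest or lowest of the 6 B16F10 arrays, and to be 4-fold or more away from the B16F10 level, taken as the average of the PECAM1+ and PECAM1- means. Ptgs2 and Csf1 met this rule, 2 of the 10, where 4.73% of all genes did. Both met the rule with the higher value in MDEC, as did 2.72% of all genes. Ptgs2 was at 11.44 in MDEC and between 5.21 and 5.35 on the 6 B16F10 arrays. The gap of 6.16 to the mean of the group means is 71.6-fold, and Ptgs2 ranked 24th of all genes by this difference. Csf1 was at 10.54 in MDEC and between 7.11 and 8.98 in B16F10, a difference of 2.68, or 6.43-fold. Even clone A3, the highest melanoma array for Csf1, lay 1.56 below MDEC.

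Smaller differences lay outside the B16F10 range as well. Il6, the founding member of its family, was at 4.51 in MDEC and between 2.58 and 3.14 in B16F10, a difference of 1.75, or 3.36-fold. Il6 lay below the median gene in MDEC too, and without detection calls its expression there was not shown. Csf3 was at 6.30 in MDEC and between 5.33 and 5.85 in B16F10, a difference of 0.72. Il33 was at 4.94 in MDEC and between 5.48 and 7.06 in B16F10, a difference of -1.02. Lif was also lowest in MDEC, with a difference of -1.12 from the mean of the group means, which the PECAM1+ clones carried, since it was -0.17 from parental cells. Tnf was at 5.38 in MDEC, 0.10 below the lowest B16F10 array. Il1a, Il1b and Csf2 lay within the B16F10 range, at 3.73, 5.28 and 3.93 in MDEC. MDEC thus lay outside the range for 7 of the 10 genes, where 52.9% of all genes did so. With a limit of 2-fold in place of 4-fold, 5 of the 10 met the rule (13.3% of all genes): Ptgs2, Csf1 and Il6 higher, and Lif and Il33 lower. Against parental cells only, Il33 differed by -0.75 and Lif by -0.17, so neither reached 2-fold.

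Of 14 measured leukocyte markers, 2 were at least 4-fold higher in MDEC, Cd53 at 11.0 against 3.93 to 4.23 in B16F10 and Cd68 at 11.18 against 7.52 to 10.07. The summed log2 level of the list was 88.0 in MDEC, 74.8 to 76.4 in the PECAM1+ clones, 76.5 in clone A1 and 75.1 in parental cells. Cd53 alone differed by 6.82 and Cd68 by 2.75, while 7 of the 14 markers were higher in MDEC and the median difference was -0.01. Ptprc, Adgre1 and Itgam were picked from the list after their values were seen, and do not stand for its other markers. The leukocyte common antigen gene Ptprc held the identical value of 4.99 in MDEC, A2, A5, clone A1 and parental cells. Adgre1 stood at 3.78 in MDEC against 3.77 to 3.78 in B16F10, and Itgam at 4.84 against 4.64 to 4.83. Fibroblast and mural markers held 0 of 10 genes at least 4-fold apart in MDEC. The part of other cells in the MDEC values of Ptgs2 and Csf1 was not tested, and fewer cells of a type cannot be told apart from less RNA per cell.

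The genes around these cytokines were read from 7 lists. Between PECAM1+ and PECAM1- arrays limma called 0 genes in each list, and at an unadjusted p under 0.05 there were 1 receptor, 0 other IL-6 family, 1 JAK-STAT, 2 NF-kB, 2 inflammasome, 2 prostaglandin and 0 decay or MAPK genes, where 9.18% of all genes had such a p. Higher means in the PECAM1+ clones were found for 3 of 9 other IL-6 family genes, 5 of 16 JAK-STAT genes, 6 of 23 NF-kB genes, 6 of 14 inflammasome genes, 14 of 21 prostaglandin genes and 9 of 12 decay or MAPK genes, beside 50.4% of all genes. The NF-kB median was -0.13 against both PECAM1- arrays, -0.33 against clone A1 and 0.01 against parental cells. The medians of the other lists lay between -0.10 and 0.12 in each of these comparisons. Of 14 listed receptor genes of the 10 products, 12 were measured by a probe set with 1 symbol. Il1r1 and Il1rl1 had none of that kind, which does not show that the array lacked probes for them. Of the 12, 7 had a higher mean in the PECAM1+ clones, with a median difference of 0.07. The LIF receptor gene Lifr was at 5.09 in A2, 5.88 in A3, 5.78 in A4 and 5.29 in A5, against 4.81 in clone A1 and 4.97 in parental cells. All 4 clones lay above both PECAM1- arrays, as for 7.73% of all genes, with a difference of 0.62 ± 0.25 (SE, limma adjusted p = 0.537). Lifr lay below the median gene on all 7 arrays. The shared signalling chain gene Il6st averaged 9.16 ± 0.11 in PECAM1+ clones (SD, n = 4) and 9.10 ± 0.08 in PECAM1- samples (SD, n = 2). The feedback inhibitor Socs3, a STAT3 target, was between 7.19 and 7.63 in the PECAM1+ clones, against 7.13 in clone A1 and 7.25 in parental cells. Its difference was 0.14 ± 0.14 (SE). The interleukin-18 gene Il18, of the IL-1 family, was between 5.18 and 5.52 in the PECAM1+ clones, against 5.18 in clone A1 and 4.46 in parental cells (0.61 ± 0.22, limma adjusted p = 0.498). The IL-1 receptor accessory gene Il1rap differed by 0.47 ± 0.19 (SE), and the NF-kB subunit gene Rela by -0.54 ± 0.15 (SE, limma adjusted p = 0.436). From clone A1 and parental cells in turn, the differences were 0.70 and 0.55 for Lifr, 0.25 and 0.97 for Il18, 0.72 and 0.23 for Il1rap, and -0.65 and -0.43 for Rela.

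In MDEC all 12 measured receptor genes were above the mean of the B16F10 group means, where 50.1% of all genes were. For Lifr, Csf1r and Csf2ra MDEC lay within the B16F10 range. At least 4-fold higher was 1 of the 12, Il6ra, beside 2.72% of all genes. Il6ra, the IL-6 receptor alpha chain, was at 8.99 in MDEC against 6.29 to 6.96 in B16F10. Il6st was at 10.81 in MDEC against 9.02 to 9.29, the TNF receptor gene Tnfrsf1a at 11.14 against 9.34 to 10.02, and Tnfrsf1b at 7.29 against 5.58 to 5.98. In the other IL-6 family genes, the receptor gene Cntfr ran the other way, at 6.46 in MDEC against 10.03 to 11.65 in B16F10. The IL-1 and inflammasome list held 4 of 14 genes at least 4-fold higher in MDEC, beside 2.72% of all genes. These were the DNA sensor Aim2 at 8.92 against 3.81 to 4.09, Casp4 at 8.99 against 4.36 to 5.29, the pore protein Gsdmd at 8.55 against 6.29 to 6.43, and the IL-1 pathway inhibitor Sigirr at 8.84 against 6.47 to 6.68. Among 23 NF-kB genes, 3 were at least 4-fold higher in MDEC: the inhibitor Nfkbia at 10.90 against 8.02 to 9.23, Irak3 at 7.59 against 5.23 to 5.34, and Traf1 at 6.59 against 4.51 to 4.63. The JAK-STAT list held 1 such gene, the kinase Pim1, and the decay and MAPK list also 1, the phosphatase Dusp1.

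Of 21 prostaglandin genes other than Ptgs2, 11 were higher in MDEC, with a median difference of 0.02. At least 4-fold apart were 3 of the 21, with 2 lower and 1 higher in MDEC, beside 4.73% of all genes. The lower ones were both prostaglandin D synthases: Ptgds at 7.99 in MDEC against 11.11 to 12.42 in B16F10, and Hpgds at 4.72 against 7.61 to 8.58. The receptor gene Ptgfr was higher, at 7.35 in MDEC against 5.12 ± 0.12 in PECAM1+ clones (SD, n = 4). Pla2g4a, the phospholipase that releases arachidonic acid and the nearest measured neighbour of Ptgs2 on its chromosome, was at 8.83 in MDEC. It stood between 7.92 and 8.22 in the PECAM1+ clones, against 8.54 in clone A1 and 7.26 in parental cells. The prostaglandin E synthase gene Ptges was at 5.79 in MDEC and between 5.47 and 5.87 in B16F10.

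Clone A1 differed by at least 2-fold from each other B16F10 array for 1325 to 1447 genes. Some regulators of these pathways were among the genes that differed from the PECAM1+ clones, and such differences were not confined to these pathways. In the fit against clone A1 alone, 5 of 23 NF-kB genes were called as lower in the PECAM1+ clones and 1 as higher, where 11.2% and 9.33% of all genes were called in those directions. The median of the list was -0.33. Irak2, an IL-1 receptor kinase, averaged 6.97 ± 0.19 in PECAM1+ clones (SD, n = 4), 8.81 in clone A1 and 7.01 in parental cells (difference from A1 -1.84, limma adjusted p = 0.00994). The inhibitor gene Nfkbie averaged 7.16 ± 0.10 in PECAM1+ clones (SD, n = 4), against 8.03 in clone A1 (-0.87, limma adjusted p = 0.0132). Traf6, Tnip1 and Birc2 were the other 3 called as lower. Tnfaip3, which encodes the NF-kB inhibitor A20, was the 1 called as higher, by 0.18. The kinase gene Jak2 (-0.91) and the receptor gene Csf2ra (-0.14) were called as lower in their lists. Of the IL-6 family, Clcf1 averaged 7.30 ± 0.27 in PECAM1+ clones (SD, n = 4), against 8.97 in clone A1 and 7.54 in parental cells (-1.67 from A1, limma adjusted p = 0.0235). The mRNA decay factor Zfp36, which binds AU-rich cytokine transcripts, was at 7.03 ± 0.20 in PECAM1+ clones (SD, n = 4), against 8.46 in clone A1 and 6.75 in parental cells (-1.43 from A1, limma adjusted p = 0.0174). In the same list Dusp5 was also called as lower (-0.44), while Dusp6 (0.79, limma adjusted p = 0.0276) and the RNA-binding protein gene Elavl1 (0.40, limma adjusted p = 0.0140) were called as higher. The leukocyte marker Cd68, a lysosomal protein, also differed, at 8.07 ± 0.09 in PECAM1+ clones (SD, n = 4) against 10.07 in clone A1, while the summed leukocyte list was 74.8 to 76.4 in the clones and 76.5 in A1. Among the inflammasome and prostaglandin genes 3 of 14 and 3 of 21 were called as lower in the PECAM1+ clones than in clone A1, namely Pycard (-0.92), Capn1 (-0.78) and Adam17 (-0.46) in one and Tbxa2r (-0.46), Ptger4 (-0.35) and Ptger1 (-0.24) in the other. Of the cell type markers, Tie1 (0.26) and Col1a2 (0.72) were called as higher. These calls rest on 1 array of clone A1. Against parental cells alone limma called 0 of the list genes.

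**Figure D3:**
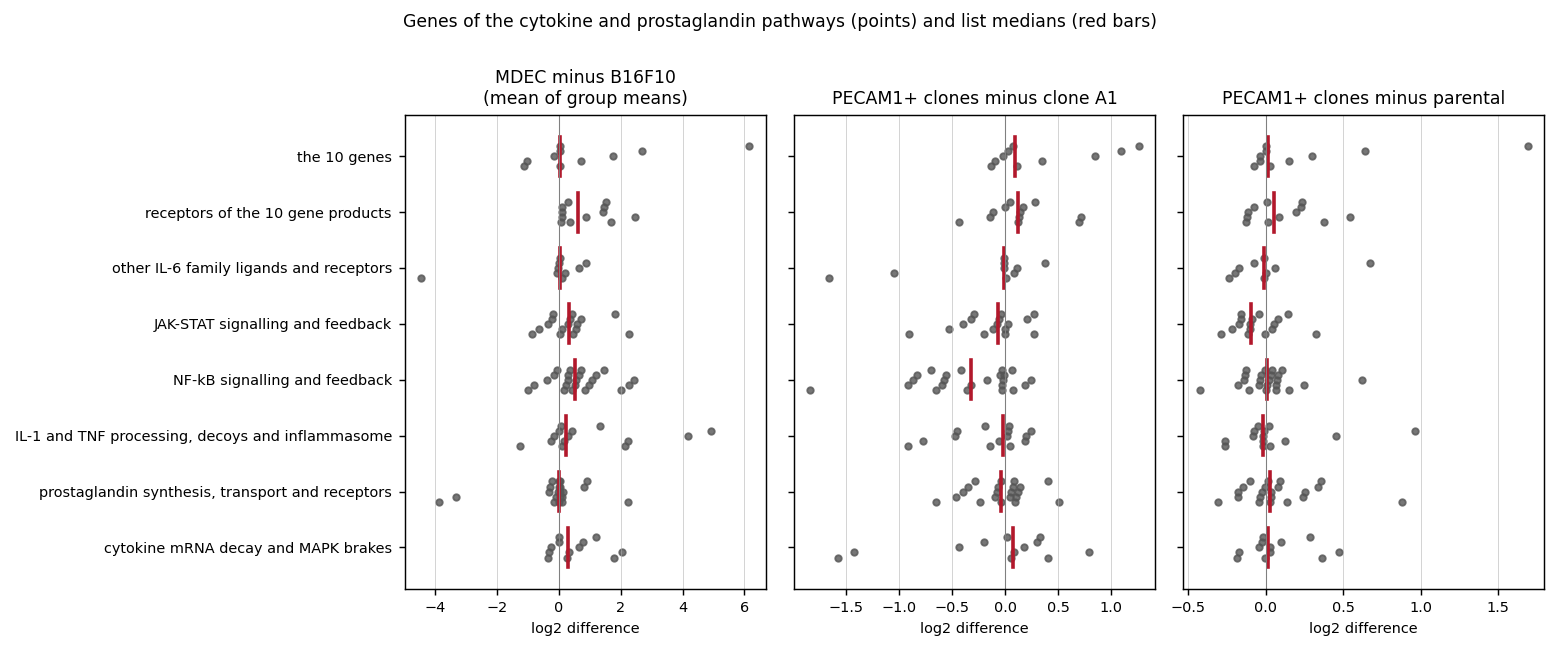
Log2 differences (horizontal axes) of the 10 genes and of the genes in 7 pathway lists (rows) for MDEC minus B16F10, PECAM1+ clones minus clone A1, and PECAM1+ clones minus parental cells. Each point is a gene and each red bar the list median, and the 3 panels differ in scale. The NF-kB median lies at -0.33 against clone A1 and at 0.01 against parental cells, and the receptor median at 0.62 in MDEC.

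Lif, Il33 and Csf1 were the 3 genes of the 10 that ranged over at least 1 log2 unit within B16F10, as 11.7% of all genes did. For each, the 3 genes most alike over the 6 B16F10 arrays were found by Pearson's r among the 2231 named genes with such a range. These points share 1 cell line and an array, clone A1, that stands apart. Taken as the highest of 2231 over 6 arrays, the r values are high by selection. For Lif they were Bcat1 (r = 0.974), which encodes a branched-chain amino acid transaminase, Apod (r = 0.973), which encodes a lipocalin, and Pecam1 (r = 0.949). Pecam1 stood at 11.00 to 11.07 in the PECAM1+ clones, 5.43 in clone A1 and 5.27 in parental cells. Its r therefore restates the gap in Lif between the groups. For Il33 they were the glutamate receptor gene Grik2 (r = 0.974), Igsf21 (r = 0.965) and the semaphorin receptor gene Plxnd1 (r = 0.964). For Csf1 they were the smooth muscle actin gene Acta2 (r = 0.992), Igfbp7 (r = 0.991) and Greb1 (r = 0.987). Acta2 shared the high value of clone A3, at 7.20, and the low value of clone A1, at 5.63, but not the high MDEC value of Csf1, since it was at 6.38 there.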

How the data were processed

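Total RNA (6 µg per sample) was biotin-labelled and hybridised to 1 array per sample, per the labels' protocols. The authors deposited 1 log2 value per probe set and array. Partek is named in the submitters' processing notes, with no version, and how signals were summarised or normalized is not given in the sources used here. The log2 scale was read from the values (1.39 to 13.5). The platform annotation named 1 symbol for 21789 of 35557 probe sets, several for 1621 and none for 12147. Genes were taken from those with 1 symbol, and the brightest probe set stood for each of 999 genes with more than 1. Values identical to the last deposited digit in at least 2 arrays occurred in 54.0% of genes, which can make a spread too small.

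The 6 B16F10 arrays were fitted in R 4.3.3 with limma 3.58.1 (lmFit, eBayes with trend, two-sided, Benjamini-Hochberg over 19938 genes, threshold 0.05), without a filter. Precision is limited by how few arrays there are. List genes were named from among the 4 with the largest differences per list in each comparison, and any called, against clone A1 alone included. Not all of the first kind are printed, and that choice, as well as naming Socs3, Ptges, Ptprc, Adgre1 and Itgam, was made after their values were seen. The 10 genes and the lists were chosen with earlier results of these data known. Promoters and gene order came from RefSeq (GRCm38.p6). The build behind the probe sets is likewise unknown here, so no array coordinates are given.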

Additional observations from a re-analysis of the deposited data

Results flagged for a closer look

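Among the 4 PECAM1+ clones, 0 of the 10 cytokine genes and 11 of 86 genes examined had 1 clone far from the others. The measure was the gap to the nearest clone divided by the whole range, above 0.829. Chance flags about 1 in 20 groups, and 21.1% of all genes on these arrays exceeded the limit, many with identical values in several clones. Clone A2 stood low for Irak3 (ratio 0.902, at 5.23 against 5.33 to 5.34), Traf1 (0.968, at 4.51 against 4.62 to 4.63) and Il18 (0.894, at 5.18 against 5.49 to 5.52). It also stood low for Tbxa2r (1.0, at 6.49 against 6.58), Ptger4 (0.83, at 4.84 against 4.95 to 4.97), Fcgr1 (1.0, at 5.52 against 5.61) and Cd53 (0.946, at 3.93 against 4.21 to 4.23). Clone A4 stood low for Stat5a (0.842, at 8.38 against 8.50 to 8.52) and Pla2g4a (0.975, at 7.92 against 8.21 to 8.22). Clone A5 stood low for Lcp2 (0.955, at 5.49 against 5.64 to 5.65), and clone A3 stood high for Laptm5 (1.0, at 5.86 against 5.17).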

How the results depend on the processing

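Lif kept its direction in all settings run, at 1.45 to 1.48 in 8 other settings (limma adjusted p from 0.156 to 0.950) and 1.26 to 1.69 when 1 array was left out (0.0515 to 0.685), and it was called in none. The number of genes called, 2 as reported, was 7 with quantile normalization, 6 with median centring, 5 with a filter on dim genes, 5 with robust eBayes, 1 with array weights and 1 with all probe sets tested. It ran from 1 to 4089 when 1 array was left out, with the 4089 without parental cells and 1 with any single PECAM1+ clone left out. The cause was not tested. Of the 10 genes, 0 were called in the other settings and between 0 and 1 when 1 array was left out, the 1 being Il1b without parental cells. The filter kept 2 of the 10 genes, Lif and Csf1. Differences near 0 changed sign: Ptgs2 was -0.0038 with quantile normalization, -0.0060 with median centring and -0.036 to 0.075 when 1 array was left out. Leaving out 1 array gave -0.10 to 0.15 for Il6, -0.014 to 0.051 for Tnf and -0.15 to 0.025 for Csf3. Csf1 ran from 0.30 without clone A1 to 1.09 without parental cells. Against MDEC, 2 of the 10 genes met the 4-fold rule in all settings run, and 5 with 2-fold. No paired analysis was possible because the labels number no replicates across groups.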

Other observations

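The genes nearest to the 10 on their chromosomes, taken by RefSeq order and not by value, include other cytokines. Osm, the IL-6 family gene next to Lif, was 0.04 below the B16F10 level in MDEC (difference -0.04), and lay between 4.41 and 4.49 in the PECAM1+ clones, and at 4.44 in both clone A1 and parental cells. On the other side of Lif, Hormad2 held 4.46 in MDEC, in the 4 PECAM1+ clones and in parental cells, and 4.30 in clone A1. The PECAM1+ minus PECAM1- differences of Osm and Hormad2 were 0.00 and 0.08, beside 1.48 for Lif. Il3, next to Csf2, was at 3.91 in MDEC, between 3.63 and 4.14 in the PECAM1+ clones, and at 3.99 in both PECAM1- samples. The lymphotoxin genes Ltb and Lta, on either side of Tnf, differed by 0.01 and 0.03 between PECAM1+ and PECAM1- arrays. Ahcyl1 and Eps8l3, on either side of Csf1, differed by 0.03 and 0.01 between MDEC and B16F10, where Csf1 differed by 2.68. Larger differences were found beside Il1a and Il6, whose own differences were -0.08 and 0.03. Ckap2l, next to Il1a, was between 8.17 and 8.41 in the PECAM1+ clones, 4.84 in clone A1 and 8.21 in parental cells (PECAM1+ minus PECAM1- 1.75 ± 0.88 SE, limma adjusted p = 0.537). Tyms, next to Il6, was between 10.50 and 10.67 in the PECAM1+ clones, 7.54 in clone A1 and 10.53 in parental cells (1.56 ± 0.79 SE, limma adjusted p = 0.537). Both were low in clone A1 and not in the other 5 B16F10 arrays. Psmd3, next to Csf3, was at 9.23 in MDEC, between 9.67 and 9.80 in the PECAM1+ clones, 10.61 in clone A1 and 9.96 in parental cells (PECAM1+ minus PECAM1- -0.54 ± 0.19 SE, limma adjusted p = 0.49).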
